A study of Homo sapiens with 18 samples.

Results

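Knockout and unedited cells that both received the ETV6 variant R369W were compared, which asks how far the variant added over the cell's own ETV6 resembles the variant alone. The comparison takes the 3 libraries of ETV6 knockout cells transduced with ETV6 R369W (titled 1, 2 and 4) and the 3 libraries of unedited cells given the same vector (titled 2, 3 and 4), 6 of the 18 libraries of the series. The groups were taken from the library titles, and all genes were used: 12262 of the 20833 genes in the table had enough reads to be tested. The cells are MEG-01 (Meg01 in the labels), a human megakaryoblastic leukemia line, and the other 12 libraries hold the same knockout and unedited cells with an empty vector (EV) or with unmutated ETV6. All 6 libraries compared carry a lentiviral vector encoding ETV6 R369W and were taken on day 3, so the groups differ by genotype: one is labelled Meg01-ETV6-KO and the other Meg01-WT. The series text calls the libraries of a condition biological replicates. Not given in the sources used here are the vector's promoter, the site of the edit, whether the knockout cells are 1 clone or several, and what the title numbers mean.

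ETV6 is an ETS-family transcription factor that acts mainly as a repressor: its PNT domain joins ETV6 molecules to each other and its ETS domain binds DNA at sites built around GGAA. It is needed in blood stem cells and in megakaryocytes, the bone marrow cells that shed platelets, and inherited ETV6 variants cause low platelet counts with a risk of leukemia. Variants in the ETS domain can weaken DNA binding while leaving the part that joins them to unmutated ETV6 intact. The changed codon is shown here with its neighbours, because it is the one that the name R369W says is changed, from arginine to tryptophan. In the reference it is 1 of 452 codons and lies in exon 6 of 8 of the ETV6 coding transcript, at chr12:11884540-11884542 on the plus strand of GRCh38, and the capitals mark it within chr12:11884522-11884560 (GENCODE release 29).
ETV6 around the R369W codon: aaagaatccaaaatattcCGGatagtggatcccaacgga

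ETV6 itself (chromosome 12, 11649854 to 11895402, plus strand, GRCh38) stood at 2053, 2829 and 2742 CPM (reads of a gene scaled to a common library size, with TMM factors) in unedited R369W replicates 2, 3 and 4, and at 2089, 1351 and 1636 CPM in knockout R369W replicates 1, 2 and 4. The ranges overlapped, since knockout replicate 1 lay above unedited replicate 2. The difference was -0.59 on the log2 scale (standard error, SE, 0.33; edgeR adjusted p = 0.317), and it ran from -0.77 to -0.45 with each of the 6 libraries left out in turn. EV libraries held 39.1 to 117 CPM in knockout and 66.0 to 145 CPM in unedited cells. A count per gene holds reads of vector and genome together and shows no edit, so these values do not check the knockout label.

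The 6 R369W libraries held 12577816 to 13398968 gene reads, and 0 reads in one of them allows up to 0.224 to 0.239 CPM (3 reads, counting error only). Reads that were not uniquely aligned took 12.9% to 13.6% of the reads in the knockout and 14.4% to 15.4% in the unedited libraries, without overlap, and their part in the results was not tested. Of the megakaryocyte markers, ITGA2B ran from 928 to 1131 CPM in unedited and from 1128 to 1662 CPM in knockout R369W libraries, GATA1 from 191 to 231 and from 153 to 199 CPM, GP9 did not exceed 3.68 CPM, and PF4 was at 0 in all 18 libraries. MS4A1 and CD3E were at 0 in these 6 libraries, and CD14, MPO, CDH5, COL1A1 and PDGFRB did not exceed 0.698 CPM. Other B cell and myeloid markers were low but reached higher in the knockout. CD79A ran from 0.0792 to 0.621 CPM in unedited and 0.843 to 1.41 CPM in knockout libraries. CSF1R ran from 0.0820 to 0.233 and 0.297 to 1.31 CPM, and PAX5 from 0 to 0.233 and 0 to 3.62 CPM. Markers of other cell types were also present in every one of the 6 libraries: the myeloid genes CD33, ITGAM and LYZ, the mast cell genes TPSAB1 (3.49 to 161 CPM in unedited and 7.81 to 72.4 CPM in knockout cells) and CPA3 (17.1 to 46.0 and 46.2 to 124 CPM), the endothelial genes KDR (4.35 to 32.1 and 0.924 to 8.89 CPM) and TEK (19.4 to 30.02 and 12.3 to 14.4 CPM), and NCAM1 of natural killer cells (2.22 to 21.7 and 13.6 to 131 CPM). CPA3 was higher in the knockout without overlap. TEK, LYZ, CD33 (406 to 452 CPM in unedited and 285 to 380 CPM in knockout cells) and ITGAM (140 to 169 and 72.3 to 123 CPM) were lower without overlap. So was a further mast cell gene, MS4A2 (2.79 to 4.02 and 1.07 to 2.67 CPM). The part of these genes in the results was not tested. Libraries of different vectors were not independent. Across genes, the deviations from the group mean of same-numbered unedited libraries of different vectors correlated at 0.69 to 0.86 (Pearson r), and those of knockout EV and ETV6 libraries at 0.76 to 0.85. Knockout R369W libraries did not line up by number with the other knockout libraries. The deviation of R369W replicate 1 correlated with that of EV and ETV6 replicate 2 (0.87 and 0.83), that of replicate 2 with replicate 4 (0.79 and 0.74) and that of replicate 4 with replicate 1 (0.76 and 0.74), against -0.58 to -0.15 with their own number. Knockout R369W replicate 1 and unedited R369W replicate 4 lay apart from the other libraries of their groups on the first 2 principal components, and results that rest on them are also given without them.

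**Figure D1:**
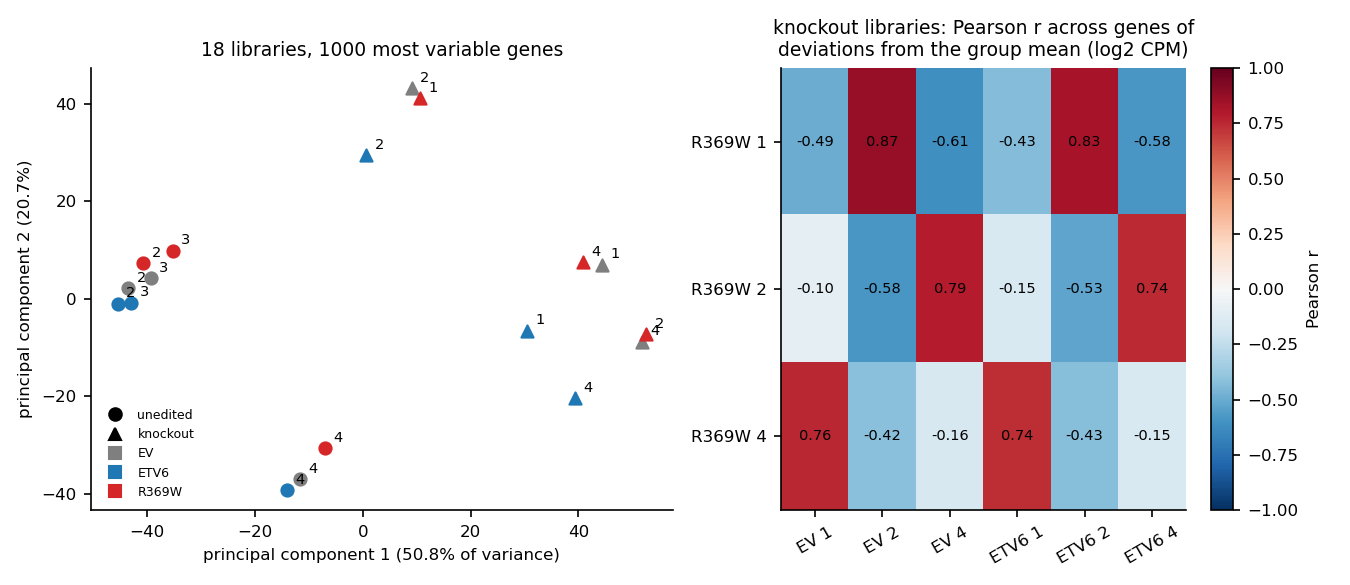
Left, principal components 1 and 2 of log2 CPM over the 1000 most variable genes, with 1 point per library, shape for genotype, colour for vector and the title's number beside it. Right, Pearson r across genes between each knockout R369W library and each knockout EV or ETV6 library, taken on deviations from the group mean: each R369W row has its high values (0.74 to 0.87) under another number than its own.

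Between knockout and unedited R369W cells, 513 of 12262 genes (4.18%) had an edgeR adjusted p under 0.05. Of these, 318 (2.59%) were higher and 195 (1.59%) lower in the knockout. The rises were larger than the falls, with a median log2 change of 1.64 among the higher genes and -0.66 among the lower. More than 2-fold changes numbered 224 up and 53 down, and more than 16-fold changes 63 up and 5 down. The unedited R369W mean was under 1 CPM for 101 of the 318 higher genes, so a share of the rises began from near 0. The knockout R369W mean was under 1 CPM for 18 of the 195 lower genes. All 513 genes had non-overlapping groups, as had 2763 (22.5%) of all genes tested. An unadjusted p under 0.05 was held by 2694 genes (22%).

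How many genes passed depended on the libraries. The count was 138 without unedited replicate 2, 247 without unedited replicate 3, 262 without unedited replicate 4, 158 without knockout replicate 2 and 281 without knockout replicate 4, and it rose to 880 without knockout replicate 1. Without both knockout replicate 1 and unedited replicate 4 it was 518, of which 335 were among the 513. The spread in this test comes from all 18 libraries, in which libraries of different vectors correlate and are not independent. Fitted on the 6 libraries alone, edgeR called 89 genes, 73 higher and 16 lower, all among the 513. Beyond the largest rises and falls, this smaller fit called, of the genes described below, CCND1, PLEK, IL1R1, CXCR4, CEBPA, CLEC12A, PIK3CD, PIK3R5, HLA-B, BIRC7, ITPR3 and FCHSD2 among the rises and CD36, GYPB, LYZ and RASGRP3 among the falls. It did not call the others, save that ZDHHC3 was not looked at in this fit.

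The 12 largest rises were SHISAL1, SLFN11, PEG3, BAHCC1, P2RY8, SLC24A3, KRT9, AK7, KCNN1, ADGRL3, FYB1 and NTNG2, genes with 0 to 1.90 CPM in each unedited R369W library. SHISAL1, a Shisa-like membrane protein gene (chromosome 22, 44243667 to 44312851, minus strand), had 0 reads in all 3 unedited R369W libraries and 9.70, 28.3 and 25.4 CPM in knockout replicates 1, 2 and 4. It was at least 266-fold higher, taking 3 reads over the unedited group (adjusted p = 0.000701). SLFN11, which acts in the response to DNA damage (chromosome 17, 35350305 to 35373701, minus strand), stood at 0, 0.158 and 0.0776 CPM in the unedited and at 7.01, 71.2 and 65.2 CPM in the knockout libraries. Its unedited group summed to 3 reads, and the ratio of reads was 604 (95% counting interval 206 to 2932). Knockout replicate 1 was the lowest knockout library for both genes.

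FYB1, an adaptor of T cells and platelets, stood at 0.492, 1.90 and 1.32 CPM in unedited and 33.7, 122 and 126 CPM in knockout R369W cells, a 75.0-fold rise (log2 6.23, SE 0.90, adjusted p = 0.00142). SLC24A3, a sodium, potassium and calcium exchanger, had 1 read in each unedited library against 14.8, 25.7 and 8.38 CPM, a ratio of 204 (95% counting interval 69.4 to 989.8). In SLC24A3 knockout replicate 4 was lowest, so the order of the knockout libraries differed from gene to gene. KRT9, a keratin of thick skin, rose from 0.189 ± 0.169 to 27.2 ± 15.9 CPM (SD, n = 3; adjusted p = 0.00150). KCNN1, a calcium-activated potassium channel, rose from 0.130 ± 0.119 to 14.3 ± 6.88 CPM (adjusted p = 0.00142). The unedited groups of the other 6 held 1 to 3 reads. Their ratios of reads were 553 (95% counting interval 98.8 to 21862) for PEG3, an imprinted zinc finger gene, 271 for BAHCC1, a chromatin protein, and 230.0 for P2RY8, a G protein-coupled receptor of B cells. They were 149 for AK7, an adenylate kinase of cilia, 84.0 for ADGRL3, an adhesion receptor, and 74.4 for NTNG2, a membrane-bound netrin relative. The intervals of these 5 ran from 25.2 at the lowest to 10742 at the highest. SLFN11 and PEG3 were lost without unedited replicate 2 (adjusted p = 0.0651 and 0.0609), ADGRL3 without unedited replicate 2 or 3 (up to 0.0716), and AK7 without any unedited library or knockout replicate 2 (up to 0.107). limma-voom called only KRT9 and NTNG2 of the 12, and ADGRL3 was also lost in the fit on the 6 libraries alone. AK7 was not tested in that fit. It stood at 0.616, 12.6 and 10.3 CPM in knockout R369W replicates 1, 2 and 4, and at 26.8, 0.762 and 20.1 CPM in knockout EV replicates 1, 2 and 4.

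**Figure D2:**
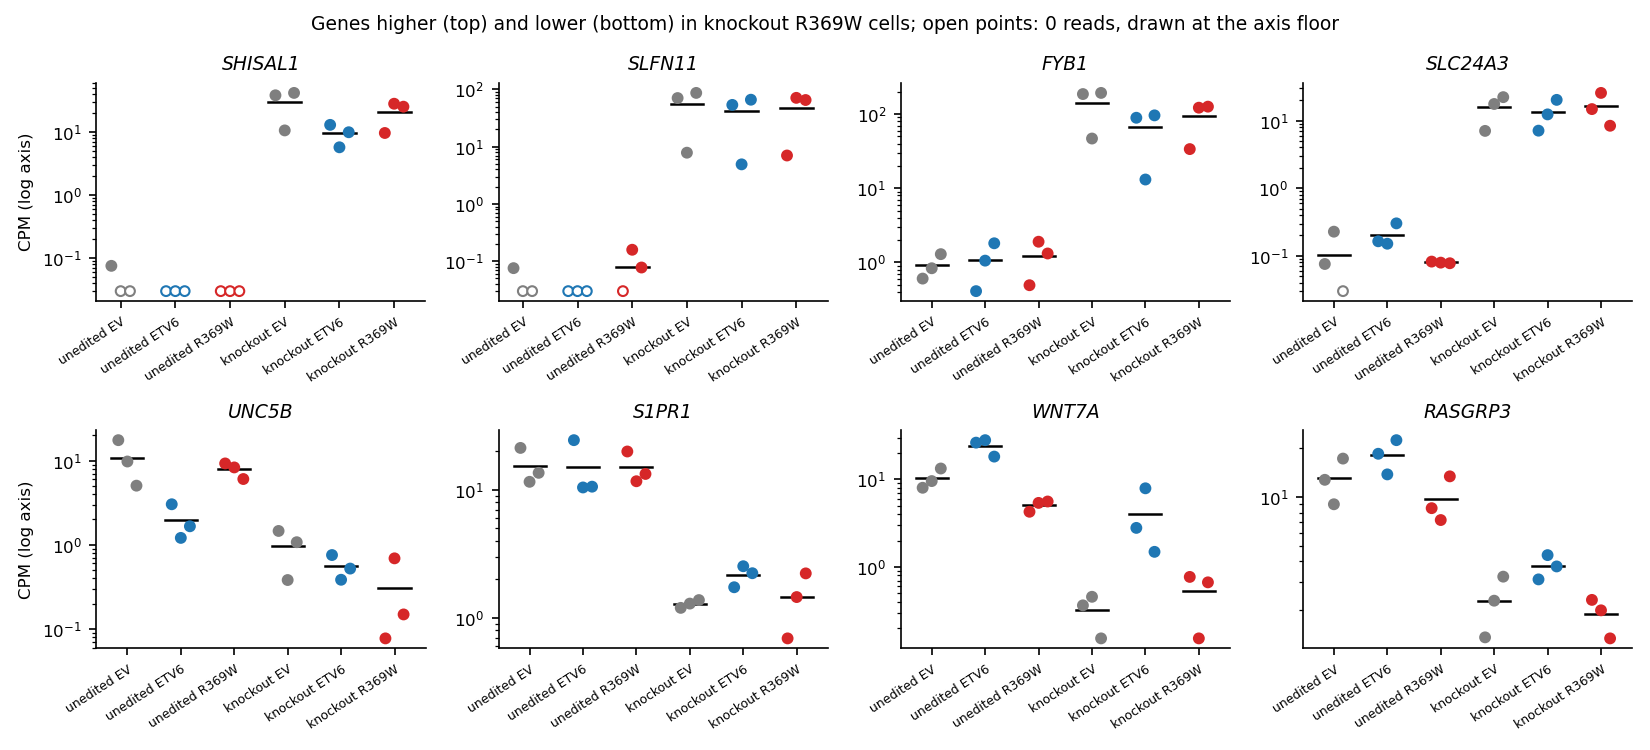
CPM on a log axis in all 18 libraries (grey EV, blue ETV6, red R369W), with a bar at each group's mean of 3, for 4 genes that rose (top) and 4 that fell (bottom) in knockout R369W cells. The red points of the 2 genotypes do not overlap in any panel, as in all 513 genes called. Open points are libraries with 0 reads, drawn at the axis floor.

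The 12 largest falls were FUT9, LRRC3B, UNC5B, PTPRD, IFI27, DCAF4L2, S1PR1, COL23A1, WNT7A, KLF7, ST6GALNAC5 and PDE5A. The knockout R369W groups of PDE5A, LRRC3B, PTPRD, UNC5B, IFI27 and FUT9 held 10, 11, 11, 12, 13 and 17 reads. The fitted sizes of these falls rest on those few reads. UNC5B, a netrin receptor (chromosome 10, 71212570 to 71302864, plus strand), stood at 9.27, 8.31 and 6.05 CPM in unedited and at 0.0770, 0.689 and 0.148 CPM in knockout R369W libraries. It was 25.2-fold lower (log2 -4.65, SE 0.70, adjusted p = 0.00176). S1PR1, a receptor for sphingosine 1-phosphate (chromosome 1, 101236865 to 101243713, plus strand), went from 19.9, 11.6 and 13.3 to 0.693, 1.46 and 2.23 CPM, a 10.2-fold fall (SE 0.43 on the log2 scale, adjusted p = 0.000689). The highest knockout library was replicate 2 for UNC5B and replicate 4 for S1PR1.

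WNT7A, a secreted WNT ligand, stood at 4.27, 5.38 and 5.59 CPM in unedited and 0.770, 0.153 and 0.668 CPM in knockout R369W cells (9.42-fold lower, adjusted p = 0.00701). IFI27, an interferon-induced gene, fell from 6.18 ± 3.03 to 0.331 ± 0.250 CPM (SD, n = 3; adjusted p = 0.00577). UNC5B, S1PR1, WNT7A and IFI27 kept adjusted p under 0.05 without each of the 6 libraries in turn. COL23A1, a transmembrane collagen, fell 9.65-fold (adjusted p = 0.0203) but was lost without unedited replicate 2 or knockout replicate 4 (up to 0.0827). DCAF4L2 fell from 122 ± 69.0 to 8.48 ± 6.49 CPM (adjusted p = 0.0343), with unedited replicate 4 the lowest of its group. The fucosyltransferase FUT9, the membrane protein LRRC3B and the receptor phosphatase PTPRD had falls of 56.7-fold, 25.3-fold and 23.6-fold (edgeR adjusted p = 0.0421, 0.0329 and 0.0447), and each was lost without any 1 of the 6 libraries (up to 0.116, 0.135 and 0.167). KLF7, a zinc finger factor, ST6GALNAC5, a sialyltransferase, and PDE5A, the cyclic GMP phosphodiesterase, had falls of 8.34-fold, 8.34-fold and 8.21-fold (edgeR adjusted p = 0.0425, 0.0342 and 0.0380). Unedited replicate 2 or knockout replicate 2 or 4, left out, ended the calls of DCAF4L2, KLF7, ST6GALNAC5 and PDE5A, as did unedited replicate 3 for DCAF4L2 and KLF7 and unedited replicate 4 for KLF7, ST6GALNAC5 and PDE5A (up to 0.135, 0.178, 0.156 and 0.167). Without the 2 libraries that lay apart, FUT9, LRRC3B, PTPRD, COL23A1 and PDE5A were lost, the fit on the 6 libraries alone called UNC5B, S1PR1, WNT7A and IFI27 of the 12, and limma-voom called UNC5B, S1PR1, WNT7A and COL23A1.

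Gene lists describe how groups of genes with known roles fared. Of all genes tested 4.18% were called, 2.59% higher and 1.59% lower, which is the share to set beside each list. Over all genes tested the median log2 difference was 0.00, 11.6% of genes had all knockout above all unedited libraries, and 10.9% the reverse. Among 22 ETS-family factors tested, ETS1, a relative of ETV6 that activates lymphoid genes, rose from 2.13, 1.35 and 3.96 to 9.17, 18.9 and 8.16 CPM (4.85-fold, adjusted p = 0.0403), and the list's median was -0.11. Of 15 corepressors and deacetylases that ETV6 is known to work with, HDAC3, a deacetylase of corepressor complexes, rose 1.33-fold (adjusted p = 0.0329, median 0.03). Both calls were lost without any library except knockout replicate 1 (up to 0.187 and 0.112), and that of HDAC3 also without the 2 libraries that lay apart. Over 24 megakaryocyte and erythroid transcription factors tested, the median was 0.01.

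Of 26 platelet adhesion receptors and integrins, 2 rose and 1 fell (11.5% called against 4.18% of all genes). CD36, a scavenger receptor of platelets and red cell precursors, stood at 72.2, 37.8 and 74.9 CPM in unedited and 14.2, 9.27 and 9.05 CPM in knockout R369W cells (5.69-fold lower, adjusted p = 0.00229). GP1BB, a subunit of the von Willebrand factor receptor, and ITGA6, a laminin-binding integrin chain, rose 8.08-fold and 5.74-fold from means of 0.210 and 0.657 CPM (adjusted p = 0.0337 and 0.0359). GP1BB was lost without any library except knockout replicate 1, and ITGA6 without unedited replicate 2 or 3 or knockout replicate 2 or 4 (up to 0.148 and 0.154). Of 26 genes of platelet granules, PLEK, pleckstrin, a protein kinase C substrate of platelets, rose from 81.6, 108 and 95.0 to 315, 398 and 418 CPM (3.97-fold, SE 0.19 on the log2 scale, adjusted p = 0.000103). The 3 unedited libraries lay within a narrow range. LYST and HPS3, which build lysosome-related granules, fell by 0.80 and 0.41 on the log2 scale (adjusted p = 0.0121 and 0.0437). The share called in the granule list was 11.5%, against 4.18% of all genes. LYST was lost without unedited replicate 2 or knockout replicate 2 or 4 (up to 0.0685), and HPS3 without any 1 library, without the 2 that lay apart or without a scaling factor (up to 0.166 with 1 library out). Of 28 genes of the cytoskeleton that forms proplatelets, 0 passed in edgeR and 0 in limma-voom, 4 passed in DESeq2, and 8 had an unadjusted p under 0.05 in edgeR (median 0.07).

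Red cell genes were mostly lower in knockout R369W cells, few of them past the test. Of 24 red cell membrane and blood group genes, 2 fell and 1 rose (12.5% called, against 4.18% of all genes), with a median log2 difference of -1.06 and 12 genes whose knockout libraries all lay under the unedited ones. The list's summed level was 4065 to 5069.8 CPM in unedited and 2764 to 3642 CPM in knockout R369W libraries. GYPB, glycophorin B of the red cell surface, whose reads may be shared with those of close relatives, went from 27.2, 23.3 and 26.1 CPM in unedited to 8.32, 4.90 and 3.49 CPM in knockout cells (4.58-fold lower, SE 0.32 on the log2 scale, adjusted p = 0.00144). Knockout replicate 1 was its highest knockout library. BCAM, the Lutheran blood group protein, rose 2.81-fold (adjusted p = 0.0297) and was lost without unedited replicate 3 or 4, without knockout replicate 1 or 2 (up to 0.121) and without both libraries that lay apart.

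Of 9 globin genes, counting the alpha globin chaperone, 0 passed in edgeR and 0 in limma-voom, 2 passed in DESeq2, and 5 had an unadjusted p under 0.05 in edgeR. Their median difference was -1.16, 8 of the 9 were lower, and their summed level was 1111 to 2275 CPM in unedited and 336 to 1049 CPM in knockout R369W libraries, without overlap. Heme synthesis and iron genes had a median of -0.44, with 20 of 22 lower and 11 of them without overlap. The heme and choline transporter FLVCR1 rose (1.46-fold, adjusted p = 0.0244) and was lost without any library except knockout replicate 1 (up to 0.0848). In bulk RNA, fewer cells of a type and less RNA per cell cannot be told apart. Globin sequences are close to each other, and their reads may be shared.

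Markers of other blood and tissue cells gave single genes in both directions. Of 35 myeloid genes 19 had enough reads to be tested, some of them owing to 1 group only. Among the 19, 2 rose while 1 fell (15.8% called against 4.18% of all genes). CEBPA, the granulocyte regulator, stood at 0.738, 1.11 and 1.47 CPM in unedited and 20.6, 13.7 and 18.0 CPM in knockout R369W libraries (15.6-fold higher, adjusted p = 0.000701). CLEC12A, a lectin receptor of myeloid cells, rose 14.0-fold to 2.73 ± 0.917 CPM (SD, n = 3; adjusted p = 0.00180). LYZ, lysozyme, went the other way, from 39.5, 41.3 and 47.9 to 22.9, 18.1 and 19.1 CPM (2.14-fold lower, adjusted p = 0.00195). The whole list summed to 1248 to 1377 CPM in unedited and 796 to 1143 CPM in knockout libraries, lower in the knockout without overlap, and 6 of the 35 genes had 0 reads. CEBPA, CLEC12A and LYZ kept their calls without each library in turn and in the fit on the 6 libraries alone.

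Of 18 B cell genes 6 were tested, with 8 at 0 reads and MS4A1 among them, and RAG2, a lymphocyte recombinase, rose from 3.28, 2.93 and 2.09 to 8.78, 6.66 and 13.4 CPM (3.46-fold, adjusted p = 0.0306). That 1 call is 16.7% of the B cell genes tested, against 4.18% of all genes. HPGDS, a prostaglandin D synthase of mast cells and megakaryocytes, rose 5.20-fold (adjusted p = 0.0359) as 1 of 18 mast cell and basophil genes tested. Of 9 endothelial genes tested, S1PR1 and TEK, the angiopoietin receptor, fell (22.2% called against 4.18% of all genes), TEK 1.92-fold (adjusted p = 0.0240). RAG2 and HPGDS were lost without any unedited library or knockout replicate 4, HPGDS also without knockout replicate 2, and TEK without unedited replicate 3 or 4 or knockout replicate 2 (up to 0.104, 0.156 and 0.107). All 3 were also lost without both libraries that lay apart. Among 5 T and NK cell and 7 stromal genes tested, edgeR, DESeq2 and limma-voom each called 0, with 3 and 2 at an unadjusted p under 0.05.

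Among receptors and signalling genes of immune cells, single genes rose. Of 25 hematopoietic cytokine receptors 3 rose and 0 fell (12.0% called against 4.18% of all genes, median 0.32). Whether called or not, 16 lay higher and 9 lower in the knockout, 6 and 3 of them without overlap. IL1R1, the interleukin 1 receptor, stood at 6.32, 5.62 and 13.7 CPM in unedited and 131, 144 and 96.7 CPM in knockout R369W libraries (14.5-fold, SE 0.40 on the log2 scale, adjusted p = 0.000194). CXCR4, the receptor that holds blood stem cells and megakaryocytes in the marrow, went from 0.656, 0.158 and 0.698 to 6.16, 4.98 and 6.53 CPM (11.5-fold, adjusted p = 0.00133). IL3RA, a chain of the interleukin 3 receptor, rose 7.64-fold (adjusted p = 0.0201) and was lost without unedited replicate 2 or 3 or knockout replicate 2 (up to 0.0920). Unedited replicate 4 was the highest unedited library for all 3 genes.

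Of 27 immunoreceptor signalling genes 3 rose and 0 fell (11.1% called against 4.18% of all genes, median 0.18). Beside FYB1 these were PIK3CD, the catalytic subunit of the delta form of phosphoinositide 3-kinase in leukocytes, and PIK3R5, a regulatory subunit of its gamma form. PIK3CD stood at 10.2, 11.6 and 13.3 CPM in unedited and 58.8, 61.8 and 37.6 CPM in knockout cells (4.52-fold, adjusted p = 0.000298), and PIK3R5 at 3.69, 4.67 and 2.87 and 18.8, 20.8 and 16.3 CPM (4.97-fold, adjusted p = 0.00140). These 3 were called without each library in turn, without both that lay apart and on the 6 libraries alone. The list of 23 RAS exchange factors and inhibitors also holds RIN3, a guanine exchange factor of endosomes and not of RAS. RIN3 rose from 21.1, 22.7 and 20.0 to 32.4, 35.2 and 37.9 CPM (1.65-fold, adjusted p = 0.00142). RASGRP3, which activates RAS downstream of diacylglycerol, fell from 8.53, 7.20 and 13.4 to 2.31, 1.99 and 1.34 CPM (5.16-fold, adjusted p = 0.00178). SPRED1, an inhibitor of RAS signalling, fell by 0.68 on the log2 scale (adjusted p = 0.0274) and was lost without any unedited library, knockout replicate 2 or both libraries that lay apart (up to 0.135). The RAS list had 13.0% called, against 4.18% of all genes, and its median was -0.03.

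Of 22 class I antigen presentation genes 4 rose and 0 fell (18.2% called against 4.18% of all genes), and 12 had all knockout above all unedited libraries. HLA-B, a class I heavy chain, stood at 15.4, 25.9 and 29.3 CPM in unedited and 66.9, 107 and 89.5 CPM in knockout R369W libraries (3.73-fold, adjusted p = 0.00399). NLRC5, the activator of class I genes, rose 2.12-fold, PSMB8, an immunoproteasome subunit, 2.02-fold, and HLA-C, another heavy chain, 1.83-fold (adjusted p = 0.0234, 0.0343 and 0.0354). HLA genes are alike in sequence, so reads may be shared between them. The list's median was 0.31, and its summed level was 3861 to 4142 CPM in unedited and 4354 to 5598 CPM in knockout libraries. With 1 library left out 1 to 6 of the 22 were called: HLA-B was kept throughout, PSMB8 and HLA-C were lost without any library except knockout replicate 1, and NLRC5 without unedited replicate 2 or 4 or knockout replicate 2 (for PSMB8 and HLA-C up to 0.155 and 0.174).

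Interferon-stimulated genes did not move one way: of 43 tested, OAS3, an antiviral oligoadenylate synthase, went from 16.6 ± 2.37 to 33.5 ± 7.58 CPM, a 2.02-fold rise (SD, n = 3; adjusted p = 0.0184), IFI27 fell, and the median was 0.02. OAS3 was lost without unedited replicate 2 or 3 or knockout replicate 2 (up to 0.103). Of 23 NF-kB targets, SOD2, the mitochondrial superoxide dismutase, rose 1.66-fold (adjusted p = 0.0471), was lost without any library except knockout replicate 1 (up to 0.188), and did not pass without a scaling factor or by limma-voom.

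**Figure D3:**
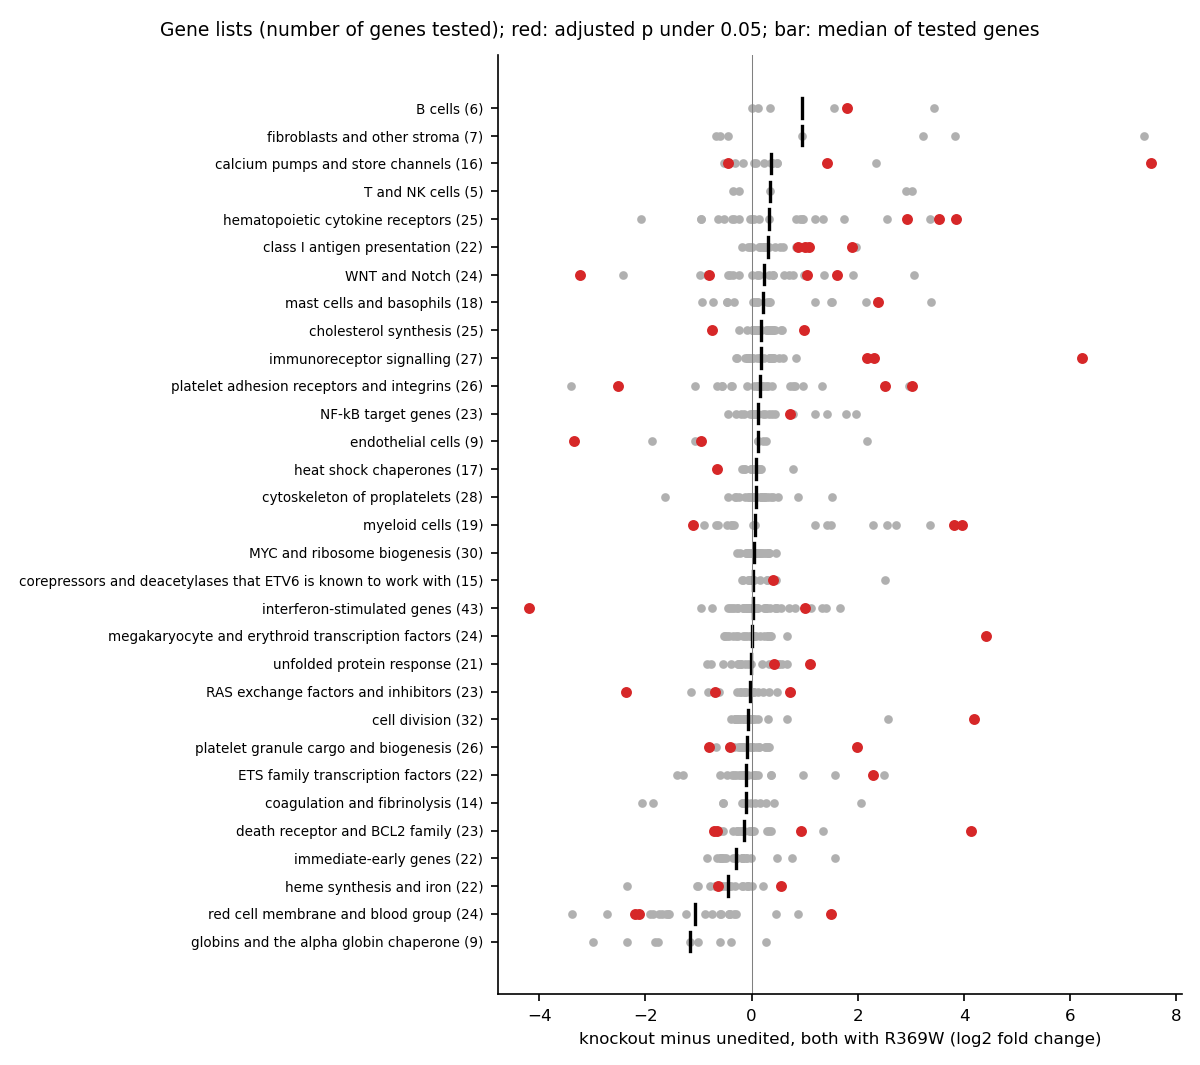
Each point is a gene of a list, placed by its log2 fold change between knockout and unedited R369W cells, with genes past the test in red, the median of tested genes as a bar and the number tested in brackets. The globin and red cell membrane medians (-1.16 and -1.06) lie at the low end, and the medians at the high end belong to B cell and stromal lists of 6 and 7 genes.

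Of 23 genes of the death receptor and BCL2 family, 2 rose and 2 fell (17.4% called against 4.18% of all genes). BIRC7, an inhibitor of apoptosis, stood at 2.87, 4.35 and 0.853 CPM in unedited and 34.97, 55.3 and 51.9 CPM in knockout R369W libraries (17.6-fold, SE 0.53 on the log2 scale, adjusted p = 0.00114). BAK1, which opens the mitochondrial membrane, rose from 17.8, 21.9 and 18.3 to 30.9, 39.8 and 39.9 CPM (1.91-fold, adjusted p = 0.00130). CFLAR, which blocks caspase 8, and TNFRSF10A, a TRAIL receptor, fell 1.63-fold and 1.57-fold (adjusted p = 0.0107 and 0.0157), and were lost without unedited replicate 2 or knockout replicate 2, TNFRSF10A also without knockout replicate 4 (up to 0.0592 and 0.0828). CCND1, cyclin D1, which drives cells out of G1 phase (chromosome 11, 69641087 to 69654474, plus strand), went from 7.47, 5.46 and 8.69 to 109, 131 and 154 CPM, 18.2-fold higher with the smallest adjusted p of the genes named here (1.68e-07, SE 0.23 on the log2 scale). It was the one gene of 32 cell division genes past the test, and the list's median was -0.06.

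Of 16 calcium pumps, exchangers and store channels, SLC24A3 and ITPR3 rose and MCU fell (18.75% called against 4.18% of all genes). ITPR3, a calcium release channel of the endoplasmic reticulum, went from 11.8, 17.7 and 15.5 to 46.2, 43.0 and 31.5 CPM (2.68-fold, adjusted p = 0.00210). MCU, the mitochondrial calcium uniporter, fell by 0.45 on the log2 scale (adjusted p = 0.0230) and was lost without unedited replicate 2 or 3 or knockout replicate 2 (up to 0.103). Of 24 WNT and Notch genes, WNT7A and HES1, a Notch target, fell and JAG2, a Notch ligand, and FZD2, a WNT receptor, rose. The share called in this list was 16.7%, against 4.18% of all genes. JAG2 stood at 28.1, 38.5 and 35.5 CPM in unedited and 61.8, 139 and 112 CPM in knockout cells (3.06-fold, adjusted p = 0.0127), with knockout replicate 1 again nearest to the unedited libraries. FZD2 rose 2.06-fold and HES1 fell 1.73-fold (adjusted p = 0.0343 and 0.0491). JAG2 was lost without unedited replicate 2 or knockout replicate 2, FZD2 without any library except knockout replicate 1, and HES1 without any 1 library, both libraries that lay apart or with DESeq2's size factors in place of TMM (up to 0.0728, 0.146 and 0.182 with 1 library out).

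Stress and housekeeping lists differed in the share called. It was 8% for cholesterol synthesis, 9.52% for the unfolded protein response and 5.88% for heat shock chaperones, against 4.18% of all genes. Cholesterol synthesis had 1 of 25 higher, the sterol reductase TM7SF2 (1.98-fold, adjusted p = 0.0411), and 1 lower, the sterol carrier STARD4 (1.67-fold, adjusted p = 0.0137). Of 21 unfolded protein response genes, CRELD2 and PDIA6, proteins of the endoplasmic reticulum, rose 2.15-fold and 1.33-fold (adjusted p = 0.0307 and 0.0435), and of 17 heat shock chaperones DNAJB4 fell 1.56-fold (adjusted p = 0.0107). Each of these 5 was lost without unedited replicate 2, all but DNAJB4 without knockout replicate 2, TM7SF2, CRELD2 and PDIA6 without unedited replicate 4 or knockout replicate 4, and TM7SF2, STARD4 and PDIA6 without unedited replicate 3. With 1 library out, adjusted p reached 0.225, 0.0728, 0.155, 0.155 and 0.0592. TM7SF2 was also lost without both libraries that lay apart. Of 14 coagulation, 22 immediate-early and 30 MYC and ribosome biogenesis genes, edgeR, DESeq2 and limma-voom called 0, with 3, 2 and 3 at an unadjusted p under 0.05. Their medians were -0.11, -0.29 and 0.05.

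The same genotypes were compared with EV in place of R369W, in 6 other libraries. With EV 531 genes (4.33%) passed, 406 higher (3.31%) and 125 lower (1.02%), and 271 were called with both vectors, all in the same direction. These are 52.8% of the R369W list and 51.0% of the EV list, 200 higher and 71 lower. Among the 318 genes higher with R369W, the median log2 change was 1.64 with R369W and 1.53 with EV, and among the 195 lower ones -0.66 and -0.48. Among the 406 genes higher with EV it was 1.48 with EV and 1.13 with R369W, and among the 125 lower ones -0.76 and -0.74. Each list was chosen by the test in its own comparison, which favours larger changes there. Across all 12262 genes the log2 changes of the 2 comparisons had Pearson r = 0.885 and Spearman rho = 0.636, a description over genes, which are not independent, from cells whose deviations correlate between vectors. The EV count was 246 to 346 with 1 library left out other than knockout EV replicate 2, and 577 without that one. For 4 of the genes above both comparisons are given: FYB1 changed by 6.23 on the log2 scale with R369W and by 7.24 with EV (adjusted p = 0.000348), PLEK by 1.99 and 1.85 (5.47e-05), CCND1 by 4.18 and 3.75 (1.78e-07) and S1PR1 by -3.34 and -3.57 (0.000203).

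**Figure D4:**
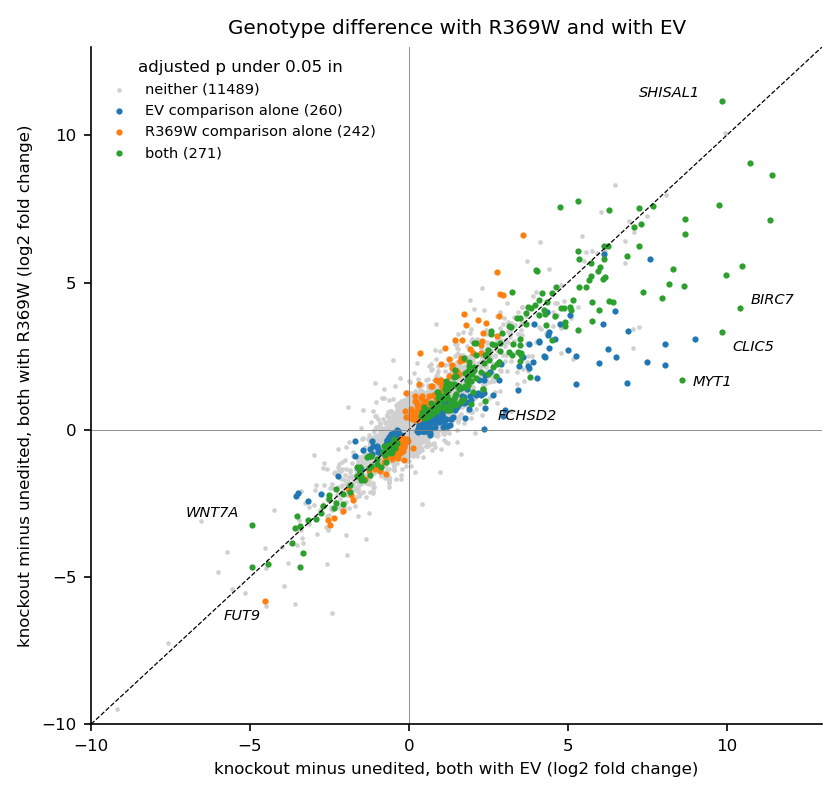
Log2 fold change between knockout and unedited cells with EV (x) and with R369W (y) for 12262 genes, coloured by which comparison called them, with a dashed line of equality. The 271 genes called with both vectors (green) lie in the upper right and lower left, and CLIC5, MYT1 and BIRC7 lie well under the line.

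Gene lists are set side by side in the same way. The globin median was -1.54 with EV and -1.16 with R369W, and that of the red cell membrane list -0.94 and -1.06. Of 27 immunoreceptor genes 8 rose with EV and 3 with R369W, of 25 cytokine receptors 6 and 3, of 23 NF-kB targets 6 and 1, and of 6 B cell genes 4 and 1. Other lists went the other way or were level: of 24 WNT and Notch genes 0 rose with EV and 2 with R369W, of 21 genes of the unfolded protein response 0 and 2, of 22 class I genes 3 and 4, and of 26 platelet surface genes 1 and 2. Of all 12262 genes, 3.31% rose with EV and 2.59% with R369W. The median of the cytokine receptors was 0.89 with EV and 0.32 with R369W, and that of the myeloid genes 0.79 and 0.06. These counts and medians are a description, since the difference between the vectors was tested by gene.

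Whether the genotype difference itself differed between R369W and EV was tested as an interaction. Of 12262 genes 5 (0.0408%) passed, and 520 (4.24%) had an unadjusted p under 0.05. In all 5, CLIC5, MYT1, FCHSD2, EZH2 and ZDHHC3, knockout minus unedited was smaller with R369W than with EV. ZDHHC3 lies outside the rule by which genes were named and was chosen after its values were seen. This test takes the 12 libraries as independent, although same-numbered unedited EV and R369W libraries deviate together. Each knockout R369W library also deviates together with a knockout EV library of another number (r of 0.76 to 0.87). With the number as a random block within genotype, limma-voom called 7 genes, 4 of them among the 5, and 1034 had an unadjusted p under 0.05. In the knockout that block joins R369W libraries to those of their own number, with which they correlate at -0.58 to -0.15. It therefore does not model the dependence between vectors in the knockout. CLIC5 was lost in the fit with the block (adjusted p = 0.456) and in limma-voom without the block (0.999, 4 genes called). Fitted on these 12 libraries alone, edgeR called MYT1 alone, and CLIC5, FCHSD2 and EZH2 had an adjusted p of 0.0974.

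CLIC5, a chloride intracellular channel protein (chromosome 6, 45880827 to 46080348, minus strand), had 0.529, 0.152 and 0.0615 CPM in unedited EV, 19.4, 26.4 and 3.80 in unedited R369W, 231, 196 and 250.2 in knockout EV and 165, 179.8 and 147 CPM in knockout R369W libraries. Unedited R369W cells thus lay above unedited EV cells and under both knockout groups, without overlap. The genotype difference was 9.92-fold with R369W (log2 3.31, SE 0.46, adjusted p = 0.00176) against 9.85 on the log2 scale with EV, and the interaction was -6.54 (SE 0.88, adjusted p = 0.0171). MYT1, a zinc finger transcription factor of neurons, had 3.12, 6.02 and 2.72 CPM in unedited R369W and 12.6, 12.3 and 13.7 in knockout R369W libraries, against 1 read in all of unedited EV and 15.8, 12.6 and 9.42 CPM in knockout EV. Its knockout levels overlapped between the vectors, while unedited R369W replicate 3 was the nearest of the unedited libraries to them. MYT1 was 3.24-fold higher in knockout than in unedited R369W cells (adjusted p = 0.0317), and its interaction of -6.89 (adjusted p = 0.0108) depends in size on the prior count, because 1 group held 1 read. BIRC7 had a like order of levels, with 1 read in unedited EV, 2.69 ± 1.76 CPM in unedited R369W and 45.0 and 47.4 ± 10.9 CPM in knockout EV and R369W cells (SD, n = 3), but its interaction did not pass (adjusted p = 0.180).

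For the other 3 the difference lay in the knockout. FCHSD2, an F-BAR protein of endocytosis, stood at 287, 193 and 277 CPM in knockout EV and 106, 105 and 108 CPM in knockout R369W libraries, with 48.3, 55.1 and 39.6 and 53.7, 57.8 and 51.3 CPM in the unedited groups. Knockout R369W cells lay under all knockout EV and above all unedited libraries. FCHSD2 rose 1.96-fold with R369W (adjusted p = 0.00130), and the interaction was -1.43 (SE 0.19, adjusted p = 0.0118). ZDHHC3, a palmitoyltransferase, had 263, 226 and 252 CPM in knockout EV, 139, 129.5 and 149 in knockout R369W and 73.1, 84.9 and 69.0 CPM in unedited R369W libraries (1.84-fold, adjusted p = 0.000621; interaction -1.07, adjusted p = 0.0171). EZH2, the methyltransferase of the Polycomb repressive complex, had 233, 237 and 244 CPM in knockout EV but 132, 121 and 102 in knockout R369W and 111, 94.9 and 111 CPM in unedited R369W libraries. The R369W groups of EZH2 overlapped, with a difference of 0.17 (SE 0.13, adjusted p = 0.470), and the interaction was -1.12 (adjusted p = 0.0364).

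R369W against EV within a genotype shares libraries with these comparisons and is given side by side. It called 7 genes (0.0571%) in knockout cells, 1 higher (0.00816%) and 6 lower (0.0489%), and 3 (0.0245%, all higher) in unedited cells. In the knockout it gave -0.46 for CLIC5, 0.02 for MYT1, -1.25 for FCHSD2, -0.83 for ZDHHC3 and -1.01 for EZH2 on the log2 scale (adjusted p = 0.685, 0.993, 0.000905, 0.00545 and 0.00389). In unedited cells it gave 6.08 for CLIC5, 0.19 for FCHSD2, 0.24 for ZDHHC3 and 0.12 for EZH2 (adjusted p = 0.00738, 1.00, 1.00 and 1.00). MYT1, with 1 read in unedited EV, had an adjusted p of 0.000692 there. With 1 of the 12 libraries left out, 0 to 6 genes passed the interaction, 0 of them without knockout R369W replicate 2 (248 at an unadjusted p under 0.05). MYT1 was lost without that library (adjusted p = 0.0590), FCHSD2 also without unedited EV replicate 2 or knockout EV replicate 4 (up to 0.0590), CLIC5 without any unedited EV library, unedited R369W replicate 2, knockout EV replicate 1 or 4, or knockout R369W replicate 2 or 4 (up to 0.0996) and EZH2 without any but knockout R369W replicate 1 (up to 0.135). Without unedited replicate 2 or 4, knockout replicate 2 or 4, or both libraries that lay apart, MYT1 did not pass between the R369W groups either (up to 0.136 with 1 library out).

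**Figure D5:**
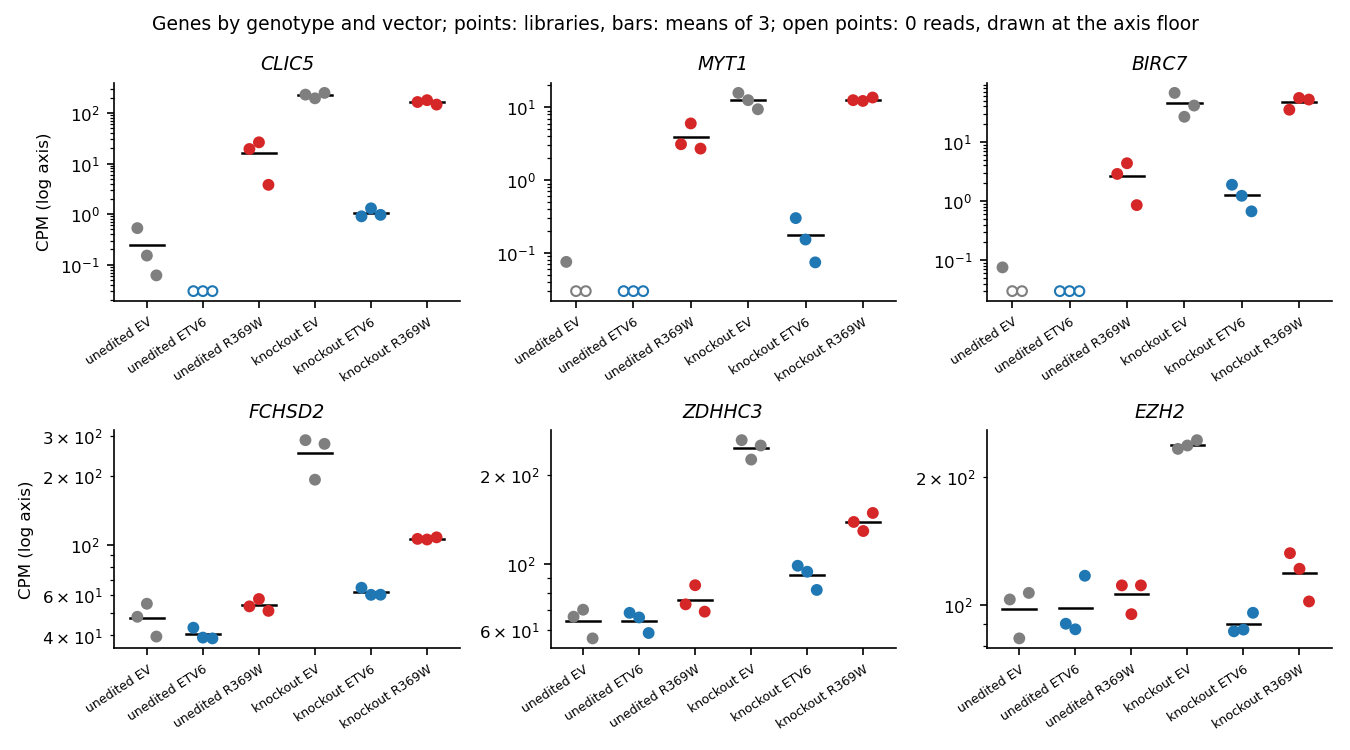
CPM on a log axis in all 18 libraries for CLIC5, MYT1, BIRC7, FCHSD2, ZDHHC3 and EZH2, with a bar at each group's mean of 3. In the top row unedited R369W cells (red) lie above unedited EV cells (grey), and in the bottom row knockout R369W cells lie under knockout EV cells.

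Genes called with EV alone give the other side of this comparison: 206 were higher and 54 lower with EV and not past the test with R369W. CD79A, a chain of the B cell receptor, had 15.5, 10.4 and 9.42 CPM in knockout EV and 1.08, 0.843 and 1.41 CPM in knockout R369W libraries, with 0.410, 0.0792 and 0.621 CPM in unedited R369W. Its genotype difference was 5.26 on the log2 scale with EV (adjusted p = 0.000142) and 1.56 with R369W (adjusted p = 0.138). DYNC2H1, a dynein of cilia, differed by 1.75 with EV and 0.41 with R369W (adjusted p = 0.230), FRK, a Src-related kinase, by 4.04 and 1.77 (0.0638), SLC35F2, a solute carrier, by 0.86 and 0.25 (0.183), and ACAP2, which acts on ARF6, by 0.63 and 0.03 (0.858). Unedited R369W libraries held 74.0, 115 and 105 CPM of DYNC2H1, against 46.6, 61.5 and 37.3 CPM with EV. Of the genes lower with EV alone, ICAM4, a red cell adhesion protein, was 2.00-fold lower with EV and 1.48-fold lower with R369W (adjusted p = 0.0521 with R369W). On the log2 scale ASAP3, an ARF regulator, differed by -1.21 and -0.65 (0.0919), and HSPG2, perlecan, by -0.68 and -0.40 (0.0835). LAT, an adaptor of T cells and platelets, differed by -0.57 and -0.25 (0.189), UBAC1, a ubiquitin ligase subunit, by -0.56 and -0.34 (0.0850), and TEAD4, a partner of YAP, by -0.57 and -0.16 (0.448). Of these 11 genes 0 passed the interaction in edgeR (adjusted p = 0.180 for ACAP2, the smallest), so a difference between the vectors was not shown for them. Called with R369W alone were 118 higher and 124 lower genes.

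With unmutated ETV6 in both genotypes 310 genes (2.53%) passed, 223 higher (1.82%) and 87 lower (0.71%), or 268 higher and 51 lower without a scaling factor. With 1 library left out this count was 116 to 163, save 310 without knockout ETV6 replicate 2. Called with both ETV6 and R369W were 213 genes, 68.7% of the ETV6 list and 41.5% of the R369W list, all in the same direction, and 174 were called in all 3 genotype comparisons. The interaction of genotype between R369W and ETV6 gave 0 genes with edgeR, DESeq2 and limma-voom, and 124 (1.01%) at an unadjusted p under 0.05 with edgeR. The 5 genes above had lower means with ETV6 than with R369W in the knockout: CLIC5 had 0.906, 1.30 and 0.968 CPM and FCHSD2 64.8, 60.3 and 60.4 CPM in knockout ETV6 libraries, and MYT1, ZDHHC3 and EZH2 had means of 0.177, 91.6 and 89.8 CPM.

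The 250 bases before the first listed RefSeq start (GRCh38.p14) were searched on both strands for GGAAGT, a core of ETS sites, which on the other strand reads ACTTCC. Of the 249 higher genes with such a window 39 held it (15.7%), as did 42 of 160 lower genes (26.3%), 24.1% of the 10007 genes tested that had a window and 19.9% of all 27305 windows. The longer CCGGAAGT, which contains GGAAGT, was in 1.61% of the higher and 8.75% of the lower genes, against 7.32% of genes tested and 3.64% of all windows. A match is a description of letters, not of binding. The windows of FYB1, CD79A and RASGRP3 are printed 5′ to 3′ in the direction of transcription with GGAAGT in capitals. FYB1 rose with R369W and EV, CD79A passed the test as higher with EV alone, and RASGRP3 fell with both. They were picked after the search, as named genes of each kind whose window holds the motif.
FYB1, chr5:39270650-39270899, minus strand: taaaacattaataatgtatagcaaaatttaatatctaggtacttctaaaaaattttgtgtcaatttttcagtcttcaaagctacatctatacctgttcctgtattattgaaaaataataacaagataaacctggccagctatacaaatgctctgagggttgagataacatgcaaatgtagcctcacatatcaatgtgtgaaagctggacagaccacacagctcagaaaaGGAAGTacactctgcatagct
CD79A, chr19:41877029-41877278, plus strand: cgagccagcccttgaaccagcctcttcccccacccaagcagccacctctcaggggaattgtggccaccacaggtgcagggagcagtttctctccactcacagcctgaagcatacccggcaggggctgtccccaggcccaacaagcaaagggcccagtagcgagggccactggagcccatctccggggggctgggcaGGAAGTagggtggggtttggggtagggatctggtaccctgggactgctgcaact
RASGRP3, chr2:33436098-33436347, plus strand: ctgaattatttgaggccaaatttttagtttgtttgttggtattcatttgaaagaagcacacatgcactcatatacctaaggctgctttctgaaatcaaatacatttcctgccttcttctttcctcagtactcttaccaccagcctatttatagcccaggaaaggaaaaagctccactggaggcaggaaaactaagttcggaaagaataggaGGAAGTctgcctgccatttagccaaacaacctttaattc
Beside these sequences, FYB1 stood at 1.24 and 93.9 CPM in unedited and knockout R369W cells, CD79A at 0.370 and 1.11 CPM, and RASGRP3 at 9.72 and 1.88 CPM. SHISAL1, UNC5B, SLC24A3 and CCND1 had no window in the RefSeq table used.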

How the data were processed

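RNA was extracted with TRIzol and sequenced from Illumina TruSeq stranded mRNA libraries, per the labels' protocols. The authors deposited raw counts of reads per gene for 18 libraries; HISAT2, SAMtools, HTSeq and GRCh38 are named in the submitters' processing notes, and the sources used here give no versions, annotation or strand setting. Without a known strand setting, reads of overlapping and antisense genes cannot be told apart. The 5 HTSeq summary entries were left out. edgeR 4.0.16 (R 4.3.3) was fitted to 12262 genes kept by its filter, with TMM scaling and 1 mean per group over all 18 libraries, using two-sided quasi-likelihood F tests and Benjamini-Hochberg adjustment at 0.05. Groups had 3 libraries each. Fitted fold changes use a prior count. Folds against an unedited R369W group of 0 to 3 reads are therefore given as bounds or ratios of reads. The interaction of MYT1, whose unedited EV group held 1 read, is a fitted value and is marked as depending on the prior count. DESeq2 1.42.0, limma-voom 3.58.1, other scalings and filters, the groups compared alone, a replicate block and leaving out libraries were alternatives; leaving out 2 libraries together was added after seeing the data. Positions come from GENCODE release 29 by gene ID. Named genes were ETV6 and the 12 largest rises and falls past the test with a mean log2 CPM of 1 or more and non-overlapping groups. Also named were up to 4 members per list, up to 4 per interaction and direction, and 6 genes per direction called with EV alone. The comparison, lists and rules were chosen with earlier results of these data known. The fit was tested on simulated counts. Some items that the rule names are not reported here.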

Additional observations from a re-analysis of the deposited data

Results flagged for a closer look

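Of 12262 genes, 5 had a difference between knockout and unedited cells that was smaller with R369W than with the empty vector by an interaction term in edgeR, the difference between vectors being tested itself. For MYT1 the interaction was -6.89 on the log2 scale (adjusted p = 0.0108) and for CLIC5 -6.54 (adjusted p = 0.0171), and in both the unedited R369W libraries lay above the unedited empty-vector libraries. The unedited empty-vector group of MYT1 held 1 read, so the size of its interaction depends on the prior count. For FCHSD2 it was -1.43 (adjusted p = 0.0118), for EZH2 -1.12 (adjusted p = 0.0364) and for ZDHHC3 -1.07 (adjusted p = 0.0171), and in these 3 the knockout R369W libraries lay under the knockout empty-vector libraries. None of the 5 was called without knockout R369W replicate 2. With 3 libraries per group, no group was large enough for a test of single libraries that stand out.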

How the results depend on the processing

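Counts of called genes moved with the test and the libraries. DESeq2 called 1010 genes between knockout and unedited cells with R369W, 893 with EV and 741 with ETV6, and 14 for the interaction of R369W and EV. A fit on the groups compared alone called 89, 211, 80 and 1. limma-voom called 161 with ETV6, and 156 with a random block of number within genotype. With 1 library left out, the counts ran from 138 to 880 with R369W, 246 to 577 with EV, 116 to 310 with ETV6 and 0 to 6 for the interaction. Apart from the replicate block given below, no other scaling, filter or test moved these counts by over 1.5 times. None moved the 0 of the interaction of R369W and ETV6. Without a scaling factor the share of higher genes with ETV6 went from 71.9% to 84.0%. ACAP2, at 0.03 on the log2 scale and not past the test, ran from -0.0154 to 0.0796 with 1 library left out, below 0 without unedited R369W replicate 4 alone, and was -0.0198 without both libraries that lay apart. With the title number as a replicate block, 1591 genes passed with R369W (506 of them among the 513), 979 with EV and 1002 with ETV6, and no named call was lost. The numbers did not pair the R369W libraries: deviations of same-numbered unedited and knockout libraries correlated at -0.31 and 0.18. Of 92 named results limma-voom lost 27, the fit on the groups compared alone 47 of 91, and DESeq2 0. Without a filter on low counts the calls of HDAC3, HPS3, SOD2, FZD2, HES1, TM7SF2 and PDIA6 were lost. The cause of these changes was not tested. Tests over 3 libraries a group measure the spread between these libraries, which may be technical, and genes under about 0.2 CPM are not told from 0.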

Other observations

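Taken by chromosome, gene levels differed between libraries of a group. Values are medians, over genes whose mean log2 CPM was 3 or more, of a library's log2 deviation from the mean over all 18 libraries, so they also hold any difference between the groups. For chromosome 19 they were -0.02, 0.02 and -0.03 in unedited R369W replicates 2, 3 and 4, and 0.05, 0.29 and 0.03 in knockout R369W replicates 1, 2 and 4. For chromosome 18 they were 0.11, 0.12 and -0.08, and 0.06, -0.28 and -0.14. Chromosome 13 had -0.19, -0.22 and 0.35, and -0.28, -0.03 and 0.12. The median log2 difference between knockout and unedited R369W cells was 0.12 for chromosome 19, -0.16 for chromosome 18 and -0.04 for chromosome 13.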
